A study of Mus musculus with 2 samples.

Results

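The 10 granule genes described here encode proteins that neutrophils store in 3 kinds of granule: Prtn3, Mpo, Elane and Ctsg for azurophil granules, Ltf, Camp, Ngp and Lcn2 for specific granules, and Mmp8 and Mmp9 for gelatinase granules. They were taken by symbol from the 34244 genes of the series and read as raw UMIs (counts of distinct captured transcripts) in neutrophils and in other leukocytes of 2 mouse livers. A neutrophil was a cell with at least 30 UMIs of S100a8 and S100a9 together, the transcripts of the abundant cytosolic protein pair of neutrophils. This gave 85 of 1138 cells in the PCB126 liver and 804 of 1858 cells in the Control liver. The other leukocytes were the remaining cells of leukocyte-like clusters, 330 in the PCB126 liver and 645 in the Control liver.

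The PCB126 group was 1 C57/BL6 mouse given PCB126, a coplanar polychlorinated biphenyl and agonist of the aryl hydrocarbon receptor, at 20 µg/kg/day. The Control group was 1 C57/BL6 mouse given the peanut oil vehicle, although its treatment label reads "Untreated". Both exposures lasted 5 weeks and ended with a 12-hour fast. The age label of both mice reads postnatal day 21, and the protocol speaks of a single gavage beside a daily dose. Before droplet capture, low-speed spins and passage through a 30 µm mesh had depleted hepatocytes, and erythrocytes had been lysed, so the cells are what that preparation kept. The files held 16269562 UMIs over 4307 barcodes for the PCB126 liver and 24134912 UMIs over 8550 barcodes for the Control liver. With 1 library per group there was no replicate, no test was made, and mouse and treatment cannot be told apart. All intervals are 95% intervals that cover counting error only.

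Neutrophils make their granule proteins in a fixed order while they mature in the bone marrow. The azurophil proteases and myeloperoxidase are transcribed in promyelocytes, the specific granule proteins in myelocytes and metamyelocytes, and the gelatinase granule proteins later, in band cells. Circulating neutrophils carry the stored proteins but little of the early transcripts, so the transcripts in a cell mark its stage rather than its stock of protein. Transcription of the early set depends on PU.1, an ETS-family factor, and on C/EBP factors, and the specific set depends on C/EBP epsilon. Lcn2 is also made by epithelial cells, and Mmp9 by several cell types.

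In GENCODE M21 on GRCm38, Prtn3 (ENSMUSG00000057729) lies on the plus strand at chr10:79874476-79883174 and Elane (ENSMUSG00000020125) follows it at chr10:79886247-79888215, with a gap of 3072 bases and no coding gene between them. Mpo (ENSMUSG00000009350) lies at chr11:87793581-87804413 and Ctsg (ENSMUSG00000040314) on the minus strand at chr14:56099881-56102574. The annotated spans of Prtn3 and Mpo each overlap a gene on the opposite strand, Plppr3 and Gm11505, and the sources do not say how the counting treated strand. Of the specific set, Camp (ENSMUSG00000038357, chr9:109847379-109849617), Ngp (ENSMUSG00000032484, chr9:110419747-110423012) and Ltf (ENSMUSG00000032496, chr9:111019271-111042767) share a stretch of chromosome 9. Between Camp and Ngp lie 570 kb with 8 coding genes, and between Ngp and Ltf 596 kb with 20 coding genes. Lcn2 (ENSMUSG00000026822) lies at chr2:32384633-32388252, Mmp8 (ENSMUSG00000005800) at chr9:7558456-7568485 and Mmp9 (ENSMUSG00000017737) at chr2:164940780-164955850.

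All 4 azurophil genes reached 3 UMIs together in 1 PCB126 leukocyte and 4 Control leukocytes. Singly, Prtn3 reached 3 UMIs in 23 Control leukocytes, Mpo in 5, Elane in 6 and Ctsg in 7. Their promoters are shown side by side, as the 250 bases before the RefSeq start site in GRCm38.p6. They cover chr10:79879417-79879666 for Prtn3 and chr10:79886062-79886311 for Elane, both on the plus strand. For Mpo the window is chr11:87793534-87793783 on the plus strand, and for Ctsg chr14:56102575-56102824 on the minus strand. Capitals mark AGGAAGT, the letters of a purine-rich ETS-type motif, searched on both strands.
Prtn3: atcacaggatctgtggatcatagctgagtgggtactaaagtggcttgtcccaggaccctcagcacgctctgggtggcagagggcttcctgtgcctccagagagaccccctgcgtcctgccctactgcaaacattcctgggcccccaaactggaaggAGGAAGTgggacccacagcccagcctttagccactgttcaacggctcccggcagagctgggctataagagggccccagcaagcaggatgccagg
Elane: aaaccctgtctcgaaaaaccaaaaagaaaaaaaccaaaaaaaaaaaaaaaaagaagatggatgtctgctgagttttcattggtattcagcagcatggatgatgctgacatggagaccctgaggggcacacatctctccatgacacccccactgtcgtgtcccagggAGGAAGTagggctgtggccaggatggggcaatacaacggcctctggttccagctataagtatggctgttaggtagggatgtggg
Mpo: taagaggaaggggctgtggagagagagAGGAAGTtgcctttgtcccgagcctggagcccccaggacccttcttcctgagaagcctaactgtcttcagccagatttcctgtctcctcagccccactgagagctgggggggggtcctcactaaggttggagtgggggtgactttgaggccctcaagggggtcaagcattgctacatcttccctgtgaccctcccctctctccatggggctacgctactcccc
Ctsg: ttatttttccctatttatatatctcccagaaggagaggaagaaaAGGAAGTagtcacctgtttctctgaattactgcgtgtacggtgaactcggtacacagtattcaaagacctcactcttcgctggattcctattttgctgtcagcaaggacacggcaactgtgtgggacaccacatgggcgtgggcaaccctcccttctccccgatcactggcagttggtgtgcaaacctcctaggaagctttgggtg

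All 4 windows held the motif once, in the direction of the gene, with its first base at -94 in Prtn3, -84 in Elane, -223 in Mpo and -206 in Ctsg, counted back from the start site. Of the 32851 windows of this length in the table, 7.69% held it on either strand. Both motifs named here were picked after the sequences had been read, so their presence is a description and no test.

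Ltf, Camp and Ngp had most of their neutrophil UMIs in the same cluster. Their windows are chr9:111019042-111019291 on the plus strand, chr9:109849457-109849706 on the minus strand and chr9:110419558-110419807 on the plus strand. Here capitals mark TTGCNNAA, the letters of a C/EBP-type motif in which N is any base, found on either strand.
Ltf: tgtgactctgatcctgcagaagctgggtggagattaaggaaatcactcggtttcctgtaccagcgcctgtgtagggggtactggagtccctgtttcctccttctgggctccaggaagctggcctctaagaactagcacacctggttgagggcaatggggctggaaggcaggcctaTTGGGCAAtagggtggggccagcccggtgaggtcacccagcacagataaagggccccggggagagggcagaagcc
Camp: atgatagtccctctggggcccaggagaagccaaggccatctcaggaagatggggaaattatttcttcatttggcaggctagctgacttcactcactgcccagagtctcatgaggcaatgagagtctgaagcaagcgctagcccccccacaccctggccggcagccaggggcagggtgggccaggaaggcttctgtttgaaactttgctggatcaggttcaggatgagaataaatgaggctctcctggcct
Ngp: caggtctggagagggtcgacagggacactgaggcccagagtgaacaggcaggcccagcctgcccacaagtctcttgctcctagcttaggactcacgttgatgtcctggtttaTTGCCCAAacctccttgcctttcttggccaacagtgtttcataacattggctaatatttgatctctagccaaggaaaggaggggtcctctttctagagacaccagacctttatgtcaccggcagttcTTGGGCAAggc

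Ltf held it once and Ngp had 2 matches, whereas Camp had none in this window. Lcn2 and Mmp8 also held it, and the 4 azurophil windows did not. It occurred in 9.56% of all 32851 windows. Mmp8 alone of the 9 members in the table held both motifs, which do not overlap there. Mmp9 was not matched in the promoter table.

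The cells taken as neutrophils carried the markers of that type in both livers. All 8 markers of the neutrophil list had UMIs, with a summed level of 24950 CPM (a gene's UMIs for each 1000000 UMIs of the class) in the PCB126 neutrophils and 18901 CPM in the Control neutrophils. Retnlg alone gave 16073 and 11470 CPM of these sums. Csf3r, the receptor for the growth factor G-CSF, had a UMI in 98.8% of the PCB126 neutrophils and 95.5% of the Control neutrophils. Ly6g, the marker with the lowest such share, had one in 23.5% and 28.0%. By CPM, Csf3r, Cxcr2, Retnlg, Msrb1 and Clec4d were higher in the PCB126 neutrophils, and Ly6g, Trem1 and Mxd1 were lower. In clusters built without the members, 82 of the 85 PCB126 neutrophils and 737 of the 804 Control neutrophils fell into neutrophil-like clusters. A further 24 Control neutrophils lay in an unnamed cluster led by haemoglobin genes, and the summed erythroid marker level was 7274 CPM in the PCB126 neutrophils against 20753 CPM in the Control neutrophils. The median neutrophil had 3958 UMIs and 12.2% mitochondrial UMIs in the PCB126 liver and 3663 UMIs and 7.88% in the Control liver. The part of red-cell transcripts and of the mitochondrial share in the results below was not tested, except where a filter is named. Neutrophils were 7.47% of the PCB126 cells (6.01 to 9.15) and 43.3% of the Control cells (41.0 to 45.6). Just inside the threshold, at 30 to 34 UMIs, lay 1 cell of each liver, and just outside, at 25 to 29 UMIs, 1 PCB126 cell and 4 Control cells.

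Within each liver the levels of the 3 sets differed between the classes. The 6 specific and gelatinase genes were over 2-fold higher in neutrophils than in other leukocytes in both livers, and the 4 azurophil genes over 2-fold lower. Among all genes with at least 20 UMIs, 12.8% were over 2-fold higher and 41.8% over 2-fold lower in this comparison in the PCB126 liver, and 10.9% and 52.9% in the Control liver. Of all leukocyte UMIs of the specific set, neutrophils held 99.8% in the PCB126 liver and 99.4% in the Control liver. For the gelatinase set the shares were 80.6% and 96.2%, and for the azurophil set 0.0779% and 11.2%. The azurophil transcripts thus lay mostly outside the cells that S100a8 and S100a9 pick. Of all leukocyte azurophil UMIs, 99.5% in PCB126 and 95.6% in Control lay in 1 cluster, called the Prtn3-led cluster below. With that cluster left out, the azurophil set in other leukocytes was 1.43 CPM in PCB126, from 5 UMIs, and 2.79 CPM in Control. The PCB126 neutrophils had 2.66 CPM, from 1 UMI, so no order of the classes is read there. The Control neutrophils had 47.0 CPM, but 69.6% of those UMIs lay in cells of the same cluster. Without these cells and those of a Camp-led cluster described below, the Control neutrophils had 9.50 CPM.

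**Figure D1:**
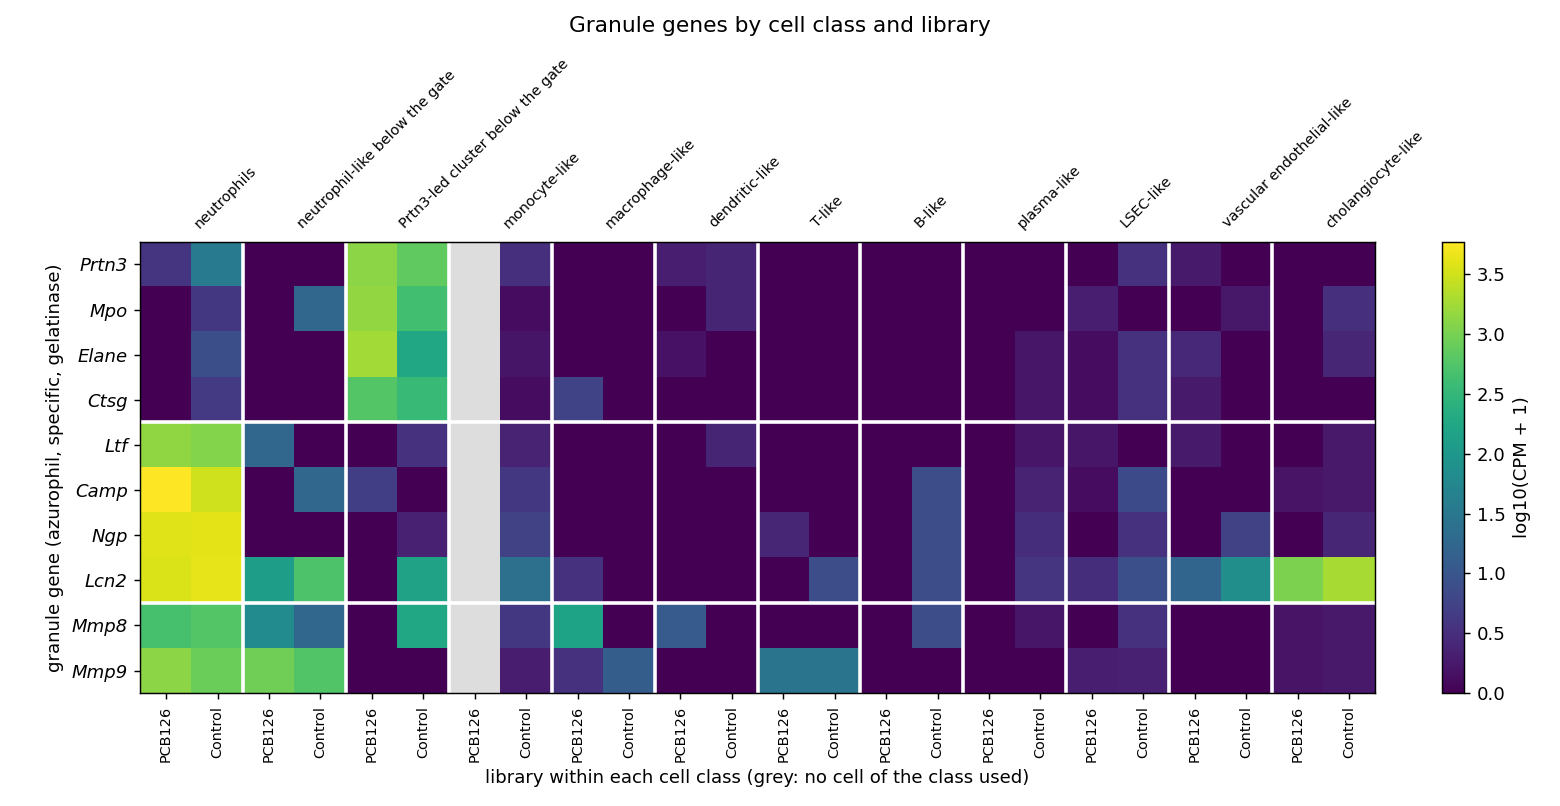
Levels of the 10 granule genes as log10(CPM + 1), by cell class and, within each class, the PCB126 library left of the Control library. White lines part the azurophil, specific and gelatinase genes. The azurophil genes stand out in the Prtn3-led cluster, the specific genes in neutrophils, and Lcn2 also in cholangiocyte-like cells, at 1053 CPM in the PCB126 liver and 1881 CPM in the Control liver.

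The azurophil set came down to very few cells. Prtn3 (proteinase 3), Mpo (myeloperoxidase), Elane (neutrophil elastase) and Ctsg (cathepsin G) together had 1283 UMIs in all PCB126 leukocytes, of which 1276 came from 1 cell. That cell held 328 UMIs of Prtn3, 357 of Mpo, 447 of Elane and 144 of Ctsg. It had 58154 UMIs in all, the 4th highest of the PCB126 cells, and its doublet score ranked 173rd. It had no S100a8 or S100a9 UMI, and no UMI of the other 6 members. Ms4a3, a gene of granulocyte and monocyte progenitors, had 35 UMIs in it, and the progenitor factor Myb had 26, both named after their values were seen.

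In the Control liver 18 of 1449 leukocytes had at least 5 azurophil UMIs (1.24%, 0.738 to 1.96). In the PCB126 liver it was 1 of 415 (0.241%, 0.0061 to 1.34), and the intervals overlap. All 4 genes reached 3 UMIs in that 1 PCB126 cell and in 4 Control cells. The 4 Control cells held 478, 445, 122 and 45 azurophil UMIs, and the mix differed among them: Elane had 12 UMIs beside 156 of Prtn3 in the first, and 92 beside 110 in the second. In the PCB126 cell Elane was the most abundant of the 4 genes, which was so in none of those Control cells. Prtn3 reached 3 UMIs without Elane in 14 Control leukocytes, so Prtn3 was the most widely detected gene of the set there.

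These cells lay almost wholly in 1 cluster, called here the Prtn3-led cluster after its leading gene. It held 11 PCB126 cells and 60 Control cells and is given no cell type name, because monocyte genes (Ly6c2, Ccr2) and proliferation genes (Mki67, Top2a) marked it beside the azurophil genes. The cells of the 2 livers in it were unlike. Apart from the cell described above, the 10 PCB126 cells had 0 or 1 azurophil UMI each and carried Mki67 at 1876 CPM and the antigen presentation gene Cd74 at 9860 CPM. The 44 Control cells with under 5 azurophil UMIs had 372 CPM of Mki67 and 1546 CPM of Cd74, and 3754 CPM of Chil3, a chitinase-like gene of immature myeloid cells that had no UMI in the PCB126 cells. The comparison of the cluster between livers is therefore one of different mixtures.

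Within the Prtn3-led cluster Elane was 1773 CPM in the PCB126 cells and 173 CPM in the Control cells, 10.2-fold higher (8.52 to 12.3), and Mpo was 1420 CPM and 366 CPM, 3.88-fold higher (3.33 to 4.51). Prtn3 and Ctsg were 1.87-fold (1.64 to 2.14) and 1.80-fold (1.47 to 2.21) higher. All of these PCB126 levels rest on the same 1 cell. In this cluster 11.2% of all genes with at least 20 UMIs were over 2-fold higher in the PCB126 cells and 14.1% over 2-fold lower. Lcn2 had 0 UMIs in the PCB126 cells against 221 in the Control cells, and Mmp8, the neutrophil collagenase, 0 against 183. Against a floor of 3 counts in the class, these are at least 20.0-fold and at least 16.6-fold lower. Mmp8 had a UMI in 29 of the 44 Control cells with under 5 azurophil UMIs and in 7 of the 16 with at least 5.

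Azurophil transcripts were nearly absent from the neutrophils themselves. Prtn3 had 1 UMI in the 85 PCB126 neutrophils and 120 UMIs in 25 of the 804 Control neutrophils. Its level was 2.66 CPM (0.0673 to 14.8) against 33.5 CPM (27.8 to 40.1), and 12.6-fold higher in Control (2.22 to 503). Its log2 ratio of -3.66 was -1.71 where neutrophils were the cells with 2% of their UMIs from S100a8 and S100a9, and -0.57 after thinning to 1000 UMIs per cell, at 11.8 CPM in PCB126, which is 1 UMI, and 17.5 CPM in Control. Of the Control UMIs, 73.3% came from 8 cells of the Prtn3-led cluster that passed the neutrophil threshold. Mpo, Elane and Ctsg had 0 UMIs in the PCB126 neutrophils, which allows up to 7.97 CPM, and 11, 25 and 12 UMIs in the Control neutrophils, at 3.07, 6.99 and 3.35 CPM. A difference in these 3 genes was not detectable at this depth. With high-mitochondrial barcodes let in, up to 50%, the azurophil log2 ratio moved to -0.14, against -4.14 in the cells used.

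Prtn3 was the 1 member over 2-fold lower among the 8 members with at least 20 UMIs in neutrophils, and no member was over 2-fold higher. Of all 6802 genes measured this way, 12.5% were over 2-fold lower and 7.79% over 2-fold higher in the PCB126 neutrophils, so the members' count is near that background. It stayed at 1 gene, Prtn3, with a minimum of 100 UMIs, where 8.29% of genes were over 2-fold lower and 4.17% higher, and with a minimum of 1 UMI, where the shares were 6.35% and 13%. The median log2 ratio was -0.10 over the 7 members with UMIs in both livers and 0.00 over all genes.

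**Figure D2:**
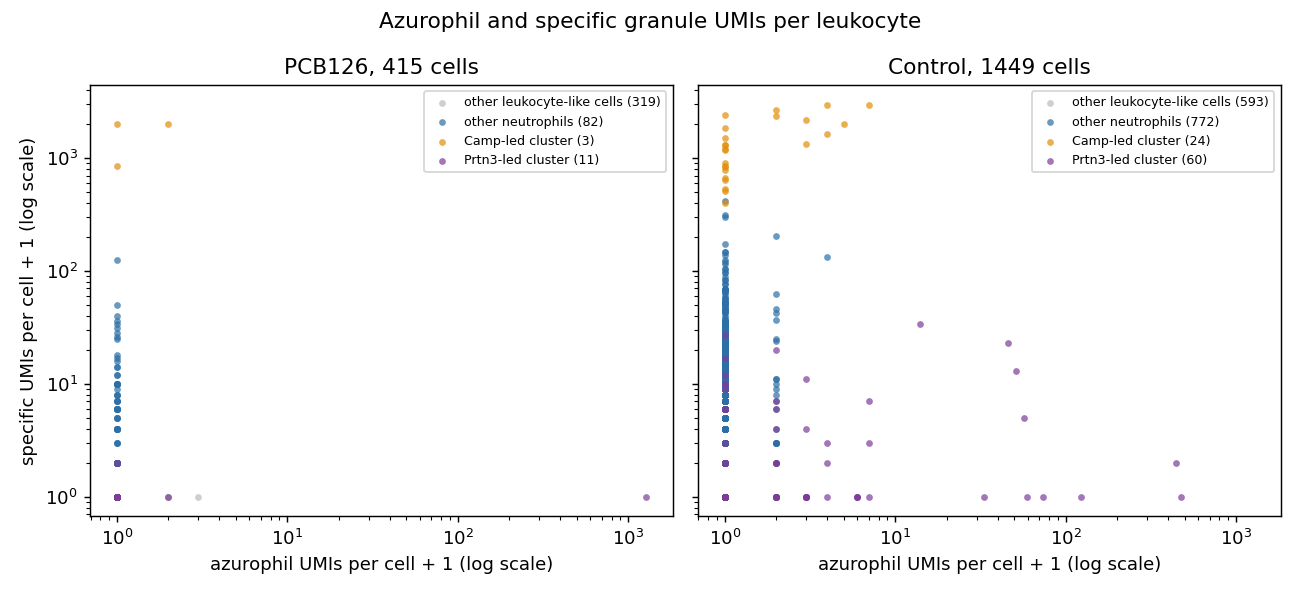
Azurophil UMIs (x axis) and specific granule UMIs (y axis) per leukocyte, each plus 1 on log scales, in the PCB126 liver (left, 415 cells) and the Control liver (right, 1449 cells). Points are cells, coloured by cluster. The 1 PCB126 cell with 1276 azurophil UMIs has no specific UMI, and of the 18 Control cells with at least 5 azurophil UMIs, 5 also have at least 5 specific UMIs.

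The specific set was concentrated too, in a cluster led by Camp. This cluster held 3 PCB126 cells and 24 Control cells, all of them neutrophils by the S100a8 and S100a9 rule. All 8 neutrophil progenitor markers marked it over both livers pooled, so it is called neutrophil progenitor-like. In its 3 PCB126 cells Ms4a3, Cebpe and Chil3 had UMIs in every cell, and Fcnb had 2 UMIs. Mki67 and Top2a had UMIs in 1 of these cells each, and Prss57 and Gfi1 had 0. Retnlg, Ly6g and Trem1 of the neutrophil list marked the cluster too. In the PCB126 liver its 3 cells held 99.8% of the neutrophil UMIs of Ltf (lactoferrin, an iron-binding protein), 99.6% of Camp (the cathelicidin antimicrobial peptide) and 93.6% of Ngp (neutrophilic granule protein). In the Control liver the 24 cells held 97.1% of Ltf, 98.2% of Camp and 88.6% of Ngp. Lcn2 (lipocalin 2, which binds bacterial siderophores) was spread more widely, with 56.9% of its UMIs in those PCB126 cells and 43.3% in those Control cells.

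The 3 PCB126 cells differed among themselves. The first had 432 UMIs of Camp, 162 of Ltf, 84 of Ngp and 167 of Lcn2 among 8479 UMIs. The second had 1021 of Camp, 132 of Ltf, 626 of Ngp and 220 of Lcn2 among 14988. The third had 749 of Camp, 231 of Ltf, 647 of Ngp and 379 of Lcn2 among 16997. Ngp was thus the least abundant of the 4 in the first cell and close to Camp in the third. Camp took 441 to 681 of each 10000 UMIs in these cells, with a median of 509, against 46.2 to 496 with a median of 245 in the Control cells. Ngp took 99.1 to 418 (median 381) in the PCB126 cells and 173 to 461 (median 314) in the Control cells. The ranges of the 2 livers overlap for both genes.

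As class sums, Camp in the Camp-led cluster was 54419 CPM in the PCB126 cells and 27658 CPM in the Control cells, 1.97-fold higher (1.88 to 2.06). Ltf was 1.25-fold higher (1.14 to 1.37), Lcn2 1.12-fold higher (1.04 to 1.21) and Ngp 1.01-fold (0.958 to 1.07). Mmp8 had 17 UMIs in the PCB126 cells and 340 in the Control cells, at 420 CPM and 858 CPM, and was 2.04-fold higher in Control (1.26 to 3.55). It was the only member of 6 measured in this cluster to pass 2-fold, where 15.5% of genes were over 2-fold lower and 11.5% over 2-fold higher. Each PCB126 value is a sum over 3 cells.

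Over all neutrophils Ltf and Camp were higher and Ngp and Lcn2 lower in PCB126, with the widest gap in Camp. Ltf was 1398 CPM in PCB126 and 1185 CPM in Control neutrophils, a ratio of 1.18 (1.08 to 1.29), and Camp was 5873 CPM and 3119 CPM, a ratio of 1.88 (1.80 to 1.97). Ngp was 3854 CPM and 4134 CPM, 1.07-fold higher in Control (1.02 to 1.13), and Lcn2 was 3580 CPM and 4326 CPM, 1.21-fold higher in Control (1.14 to 1.28). The set as a whole had a log2 ratio of 0.20. This turned to -0.78 outside the Camp-led and Prtn3-led clusters, and to 1.30 among cells with at most 10% mitochondrial UMIs. That stricter limit kept 26 of the 85 PCB126 neutrophils and 554 of the 804 Control neutrophils, and in both livers every Camp-led cell. With it the log2 ratios were 1.40 for Ltf and 2.07 for Camp, and those of Ngp and Lcn2 changed sign, to 1.06 and 0.51.

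Summed over the cells outside those clusters, every specific gene was lower in the PCB126 neutrophils, but the cells lay in different clusters in the 2 livers. The 82 PCB126 cells held 1 UMI of Ltf and 8 of Camp, all 8 of them in 1 cell, against 122 and 197 UMIs in 772 Control cells. Ltf was 2.98 CPM against 40.0 CPM and 13.4-fold higher in Control (2.36 to 534), and Camp was 23.8 CPM against 64.5 CPM and 2.71-fold higher in Control (1.35 to 6.36). Ngp was 277 CPM and 551 CPM, 1.99-fold higher in Control (1.62 to 2.48). Lcn2 was 1730 CPM and 2842 CPM, 1.64-fold higher in Control (1.51 to 1.79). Neutrophil-like cluster 7, with 4 of these PCB126 cells and 142 of these Control cells, held 97 of the Control UMIs of Ltf, 171 of Camp and 1574 of the 1683 of Ngp. Within it the specific set was 8040 CPM in PCB126 and 8086 CPM in Control cells, a ratio of 0.994 (0.865 to 1.14). That PCB126 level rests largely on 1 cell, which held 123 of the 220 UMIs of the set, so no likeness of the livers is read from it. Camp there had 8 UMIs in PCB126 and 171 in Control cells, a ratio of 1.24 (0.528 to 2.50), and Ltf had 0 and 97, at least 1.22-fold lower against a floor of 3 counts. The part of this uneven filling in the sums was not tested. Per cell, Lcn2 took between 0 and 91.1 of 10000 UMIs with a median of 9.33 in the PCB126 cells, and between 0 and 345 with a median of 16.8 in the Control cells. Ltf and Camp passed 2-fold among the 6 members measured here, where 12.2% of all genes were over 2-fold lower and 9.07% over 2-fold higher in the PCB126 cells. The median log2 ratio was -0.85 over those 6 members and 0.06 over all genes.

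**Figure D3:**
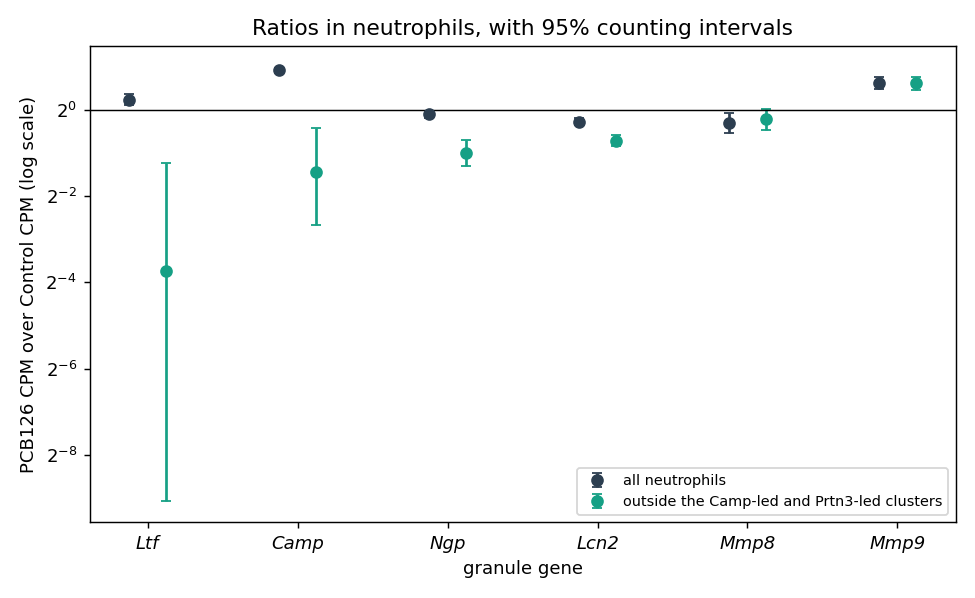
Ratio of CPM in PCB126 over Control neutrophils on a log scale, for the specific and gelatinase genes, over all neutrophils and outside the Camp-led and Prtn3-led clusters. Bars are 95% counting intervals. Ltf and Camp stand above 1 over all neutrophils (1.18 and 1.88) and below 1 outside those clusters, whereas Mmp9 is 1.54 and 1.53.

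Mmp9 (gelatinase B) was the gelatinase gene with the higher level in the PCB126 neutrophils. It was 1308 CPM in PCB126 and 847 CPM in Control neutrophils, a ratio of 1.54 (1.40 to 1.70), with 492 and 3031 UMIs. After thinning each cell to 1000 UMIs, 63.5% of the PCB126 neutrophils (52.4 to 73.7) and 50.1% of the Control neutrophils (46.5 to 53.6) had an Mmp9 UMI, against 94.1% and 77.6% unthinned. As a background, in LSEC-like cells (liver sinusoidal endothelium), 0.637% of PCB126 and 0.680% of Control cells had one, at medians of 5683 and 5590 UMIs. The log2 ratio of Mmp9 was above 0 under all 19 other settings tried, from 0.33 to 0.93. Mmp8 was 468 CPM in PCB126 and 577 CPM in Control neutrophils, 1.23-fold higher in Control (1.06 to 1.45). Its share went the other way, with a UMI in 58.8% of PCB126 and 43.9% of Control neutrophils, and 28.2% and 25.2% after thinning, so no order is read from it.

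The neutrophil-like clusters were filled differently by the 2 livers. Cluster 17, led among others by the stress genes Atf3 and Chac1, held 49 PCB126 neutrophils (57.6%) and 4 Control neutrophils (0.498%). Cluster 1, led by inflammatory genes such as Tnf and Ptgs2, held 11 PCB126 (12.9%) and 325 Control neutrophils (40.4%). Cluster 3, led among others by Il1b and Cxcr2, held 18 and 266. Cluster 7 held 4 and 142. It was led among others by Retnlg and by Mmp8 and Mmp9 themselves, although the members had been left out of clustering.

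Mmp9 did not differ between the livers beyond counting error in clusters 1 and 3. It was 586 CPM in PCB126 and 594 CPM in Control cells of cluster 1, a ratio of 0.987 (0.634 to 1.47), and 727 CPM and 810 CPM in cluster 3, a ratio of 0.898 (0.652 to 1.21). In cluster 7 it was 2668 CPM and 1606 CPM, a ratio of 1.66 (1.29 to 2.10) resting on 4 PCB126 cells. Cluster 17 gave 1506 CPM and 992 CPM, a ratio of 1.52 (0.891 to 2.81) resting on 4 Control cells. The part of this uneven filling in the overall Mmp9 ratio was not tested. Lcn2 was higher in the Control cells of each of these clusters, by 2.28-fold in cluster 1 (1.66 to 3.22), 1.91-fold in cluster 3 (1.51 to 2.45), 1.20-fold in cluster 7 (1.00 to 1.44) and 1.43-fold in cluster 17, where the interval includes 1 (0.972 to 2.03). Ngp was 3106 CPM in the 4 PCB126 cells and 2167 CPM in the Control cells of cluster 7, a ratio of 1.43 (1.14 to 1.78). Of its 85 PCB126 UMIs there, 55 lay in 1 cell, so no direction is read from this ratio. Mmp8 went both ways among these clusters, and only the cluster 3 interval leaves out 1. In cluster 1 it had 1 UMI in PCB126 and 143 in Control cells, 5.46-fold higher in Control (0.965 to 217). In cluster 3 it had 11 UMIs in PCB126 and 379 in Control cells and was 2.32-fold higher in Control (1.28 to 4.69). It was 1864 CPM in PCB126 and 1561 CPM in Control cells of cluster 7, a ratio of 1.19 (0.884 to 1.58). In cluster 17 it was 474 and 283 CPM, a ratio of 1.67 (0.632 to 6.26). Median mitochondrial shares were higher in the PCB126 cells of all 4 clusters, at 15.8%, 15.4%, 8.36% and 11.8%, against 8.96%, 8.53%, 6.25% and 9.19% in the Control cells.

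**Figure D4:**
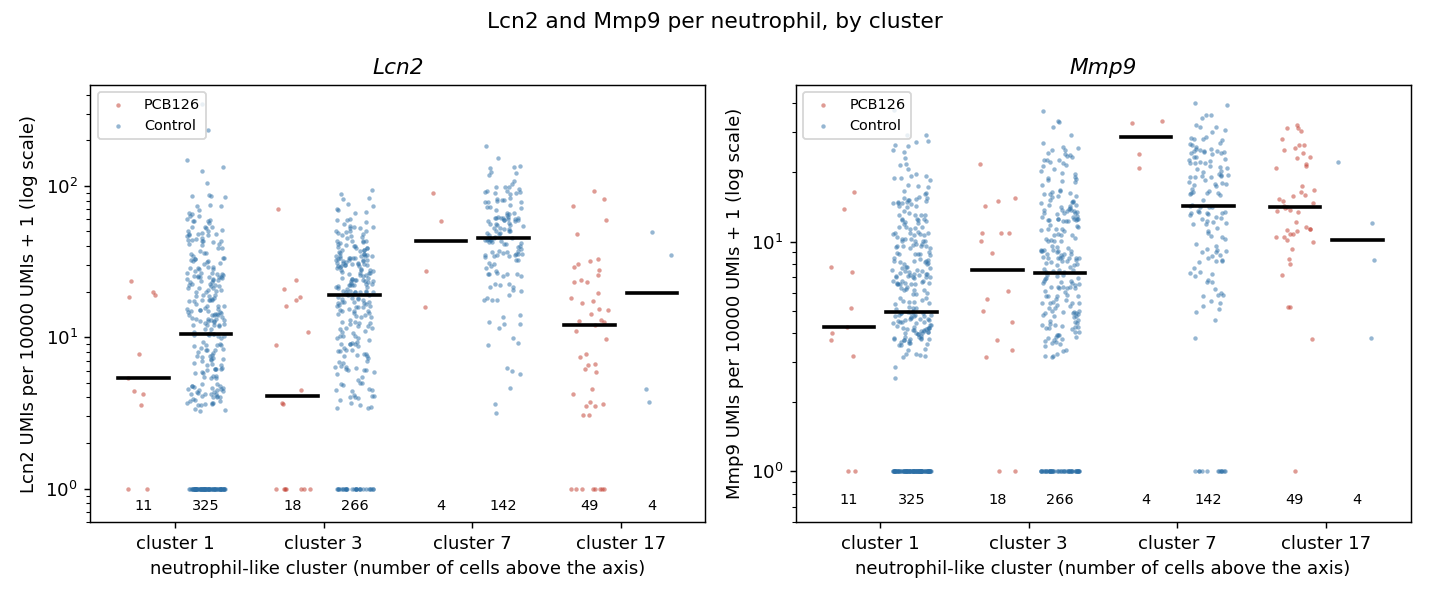
Lcn2 (left) and Mmp9 (right) UMIs per 10000 UMIs plus 1, on log scales, in single neutrophils of clusters 1, 3, 7 and 17, PCB126 left of Control. Bars are medians over cells and the numbers above the axis are cells. The Lcn2 median is 3.06 in PCB126 and 17.9 in Control cells of cluster 3, while the Mmp9 medians there are 6.53 and 6.29.

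Along a stage index the specific and gelatinase sets ran differently in both livers. The index is the share of early-list UMIs (9 genes such as Fcnb, Cebpe and Mki67) among early and late UMIs (8 late genes such as Cxcr2 and Csf3r), with an early range from 0.5 up, a late range up to 0.1 and a middle range between. The ranges are parts of a scale and not cell types: 21 PCB126 and 201 Control cells lay within 0.05 of a limit. The early, middle and late ranges held 2, 2 and 81 PCB126 neutrophils and 28, 46 and 730 Control neutrophils. The PCB126 values of the early and middle ranges therefore describe 2 cells each. In the middle range all PCB126 UMIs of Ltf, Camp and Ngp, and 167 of the 171 of Lcn2, came from 1 Camp-led cell, the first of the 3 described above. Both early PCB126 cells were Camp-led, as were 16 of the early Control cells, with a further 8 of the Prtn3-led cluster. The late range held 2 Camp-led Control cells and 0 Camp-led PCB126 cells. Late Control cells had 255 UMIs of Ltf and 312 of Camp. All Control neutrophils outside the Camp-led and Prtn3-led clusters had 122 and 197.

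Ngp was highest early and lowest late, at 39800, 6939 and 280 CPM from the early to the late range in PCB126 cells and 21007, 9330 and 810 CPM in Control cells. Camp ran 55338, 35688 and 24.1 CPM in PCB126 cells and 19672, 5164 and 109 CPM in Control cells. With range limits at 0.2 and 0.4 the middle range held 6 Control cells in place of 46, and Camp was 3410 CPM in middle and 263 CPM in late Control cells. Ltf in late Control cells was then 194 CPM, against 89.4 CPM, with 5 Camp-led Control cells in the late range in place of 2. Lcn2 fell less steeply, to 1737 CPM in late PCB126 cells and 3088 CPM in late Control cells, against early levels of 18728 and 11355 CPM. The gelatinase genes lacked that slope. Mmp9 was 969, 1900 and 1319 CPM in PCB126 cells and 341, 927 and 928 CPM in Control cells, lowest in the early range of both. Mmp8 was 156, 991 and 479 CPM in PCB126 cells and 280, 697 and 618 CPM in Control cells. In the late range, which is the best filled in both livers, the specific set was 2044 CPM in PCB126 and 4097 CPM in Control cells, and the gelatinase set 1797 and 1546 CPM. With limits at 0.2 and 0.4 the specific set in late Control cells was 4677 CPM. The part of the uneven filling of the neutrophil-like clusters in these late values was not tested.

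**Figure D5:**
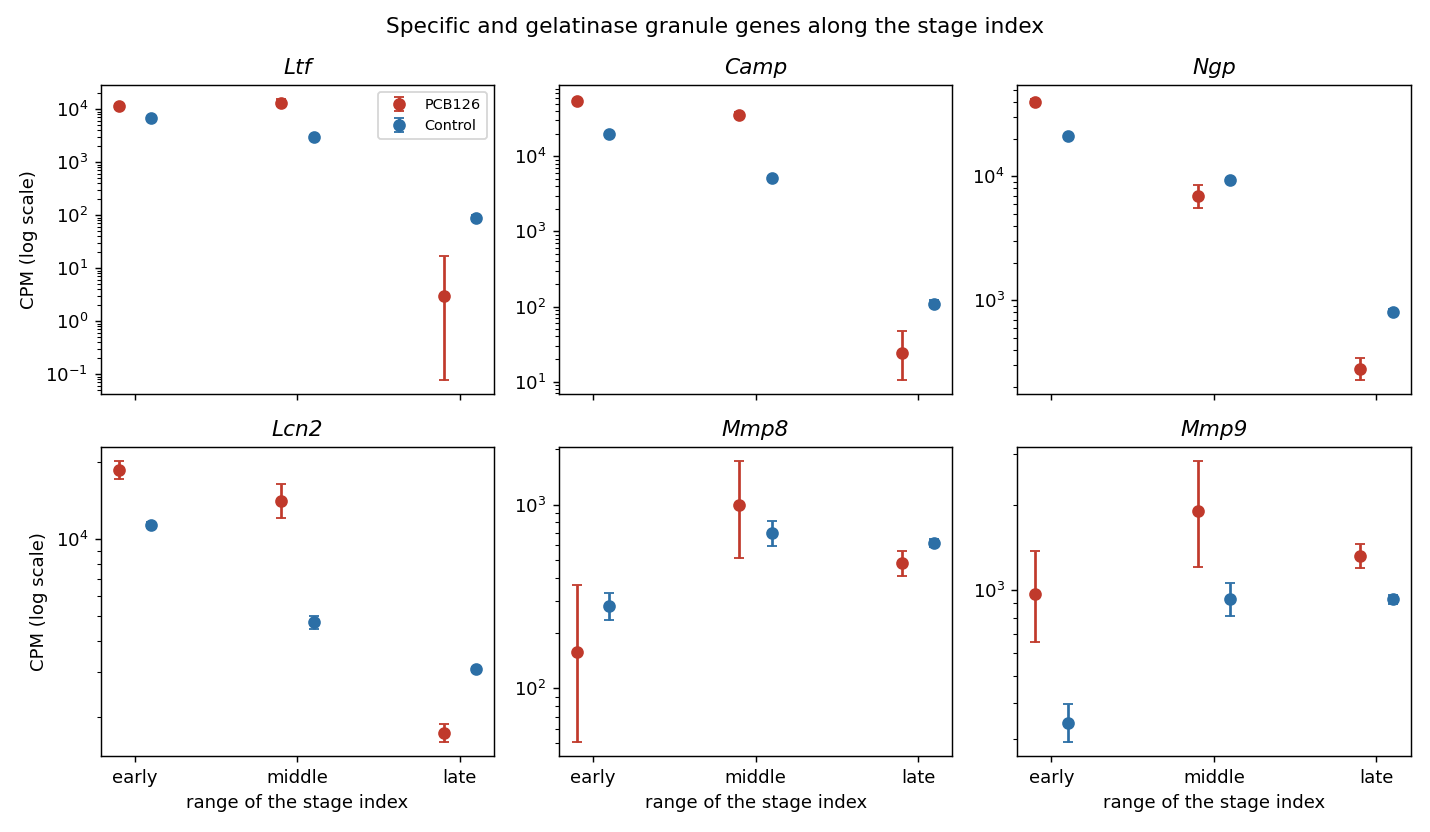
CPM on log scales of the specific and gelatinase genes in neutrophils of the early, middle and late ranges of the stage index, PCB126 left of Control, with 95% counting intervals. In the late range Ltf, Camp, Ngp, Lcn2 and Mmp8 lie lower in PCB126 cells and Mmp9 lies higher (1319 against 928 CPM). PCB126 holds 2 cells in each of the early and middle ranges. The late range holds 2 Camp-led cells in Control and 0 in PCB126.

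Among the other leukocytes the class make-up was unlike between the livers, and its part in the sums over them was not tested. The PCB126 cells were dendritic-like (130), T-like (70), B-like (55), macrophage-like (42), neutrophil-like below the threshold (16), of the Prtn3-led cluster (11) and plasma-like (6). The Control cells were monocyte-like (411), plasma-like (58), dendritic-like (56), of the Prtn3-led cluster (52), neutrophil-like below the threshold (25), B-like (19), T-like (18) and macrophage-like (6). Over these sums Elane and Mmp9 were over 2-fold higher and Ngp and Lcn2 over 2-fold lower in PCB126 among 8 members measured. Of all 11038 genes 11.3% were over 2-fold higher and 9.84% over 2-fold lower. Elane was 120 CPM in PCB126 and 22.3 CPM in Control other leukocytes, and its log2 ratio of 2.42 turned to -0.87 without the Prtn3-led cluster. Lcn2 had 9 UMIs against 229 and was 14.5-fold higher in Control (7.53 to 32.2). Of the Control UMIs, 117 came from the Prtn3-led cluster, which had 0 in PCB126, and 75 from monocyte-like cells, a class with no PCB126 cell, where 42 of 411 cells had one.

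Outside the Prtn3-led cluster Mmp8 was 25.2 CPM in PCB126 and 2.26 CPM in Control other leukocytes, 11.1-fold higher (6.19 to 21.8). With that cluster it was 23.5 CPM and 24.3 CPM, a log2 ratio of -0.05. This ratio was -3.87 with clusters at resolution 0.5, at 1.72 CPM in PCB126 and 25.2 CPM in Control, and -1.12 at most 10% mitochondrial UMIs, at 11.9 and 25.9 CPM. Outside the cluster Mmp8 and Mmp9 were over 2-fold higher and Lcn2 over 2-fold lower among the 3 members measured, with 12.5% of all genes over 2-fold higher and 10% over 2-fold lower there. Of its 88 PCB126 UMIs, 63 lay in macrophage-like cells, where 14 of 42 cells had one and 1 cell had 24. That is 154 CPM (118 to 197), against 0 UMIs in the 6 macrophage-like Control cells, and at least 4.37-fold higher against a floor of 3 counts. A further 21 lay in 4 dendritic-like cells. LSEC-like PCB126 cells, as a background, had none in 471 cells. The other 9 members had at most 2 UMIs each in the macrophage-like PCB126 cells. Mmp9 was 20.9 CPM in PCB126 and 7.14 CPM in Control other leukocytes outside that cluster, 2.93-fold higher (1.97 to 4.41), and of its 73 PCB126 UMIs 55 lay in neutrophil-like cells below the threshold. In T-like cells it was 26.9 CPM in PCB126 and 27.4 CPM in Control, a ratio of 0.980 (0.320 to 4.01).

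Few cells carried transcripts of more than 1 end of the series. At least 5 azurophil UMIs and at least 5 UMIs of the specific set occurred in 0 of 415 PCB126 leukocytes, which allows a share of up to 0.723%. Only 1 PCB126 leukocyte had at least 5 azurophil UMIs, so no PCB126 count with that set could pass 1. In Control both occurred in 5 of 1449 leukocytes. The 5 were all the Control neutrophils with that many azurophil UMIs, out of 18 such Control leukocytes, and without Lcn2 in the specific set 1 of them was left. The azurophil and gelatinase sets met in 0 PCB126 and 4 Control leukocytes, and all 3 sets in 0 and 2. The specific and gelatinase sets both reached 5 UMIs in 28 PCB126 and 243 Control leukocytes. At least 5 UMIs of Ltf, Camp and Ngp together were present in 5.88% of PCB126 neutrophils (1.94 to 13.2) and 9.45% of Control neutrophils (7.52 to 11.7).

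Genes with the most similar pattern were sought over 28 sums by library and cluster, which share depth and library, among 10932 genes. Only sums of at least 20 cells were used, so the 11 PCB126 cells of the Prtn3-led cluster were left out. In those cells Vcan had 0 UMIs and F13a1 had 41. For the azurophil set they were Vcan (Pearson r = 0.886), Serpinb2 (0.862) and F13a1 (0.832). For the specific set they were Dgat2 (0.875), Sgms2 (0.871) and Mapk13 (0.866), and for the gelatinase set Tarm1 (0.953), Osm (0.950) and Slfn4 (0.947). Vcan and F13a1 had no UMI in the PCB126 neutrophils and 22.6 and 29.9 CPM in the Control neutrophils. These Control levels came mostly from the 8 neutrophils of the Prtn3-led cluster, which held no PCB126 neutrophil. The Camp-led Control cells had 0 UMIs of both genes. Control neutrophils outside the 2 clusters had 1.31 CPM of Vcan and 0.983 CPM of F13a1. Osm, a cytokine gene, was 776 CPM in PCB126 and 484 CPM in Control neutrophils. These are descriptions across sums, with no test.

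The rest of the granule apparatus in neutrophils was read from lists of related genes, of which those with the most UMIs in each direction are named. Of 18 other granule genes measured, none was over 2-fold higher and 2 were over 2-fold lower in PCB126, where 7.79% of all genes were over 2-fold higher and 12.5% lower, which is also the background for the lists that follow. Srgn, the proteoglycan core that packs granule proteins, was 6724 CPM in PCB126 and 4341 CPM in Control neutrophils, a ratio of 1.55 (1.48 to 1.62), and Lyz2 (lysozyme) 2971 and 2193 CPM, a ratio of 1.36 (1.27 to 1.44). Pglyrp1, a bacterial cell wall binding protein of specific granules, was 1.34-fold higher in Control (1.21 to 1.48), and Cybb, a subunit of the phagocyte oxidase, 1.42-fold higher (1.16 to 1.76).

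The 2 genes past 2-fold are named after their values were seen. Ctsc, the peptidase that activates the azurophil proteases, was 13.3 CPM in PCB126 and 69.0 CPM in Control neutrophils, 5.20-fold higher in Control (2.20 to 16.1). Fcnb, a ficolin, had 2 UMIs in PCB126 and 175 in Control neutrophils, 9.20-fold higher in Control (2.51 to 76.6), and none outside the Camp-led and Prtn3-led clusters in either liver. Over the 17 genes with UMIs in both livers the median log2 ratio was -0.21.

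Of 8 protease inhibitor genes measured, none was over 2-fold higher and Stfa1 was over 2-fold lower, at 77.1 CPM in PCB126 and 209 CPM in Control neutrophils, 2.71-fold higher in Control (1.87 to 4.07). Stfa1 and Stfa2l1 belong to a family of near-identical stefin genes among which reads may be split, so their values are uncertain. Slpi, an inhibitor of elastase and cathepsin G, was 2514 CPM in PCB126 and 1839 CPM in Control neutrophils, a ratio of 1.37 (1.28 to 1.46). The cysteine protease inhibitor gene Cstb had a ratio of 1.52 (1.14 to 2.00), and Stfa2l1 was 1.39-fold higher in Control (1.24 to 1.57). The list's median log2 ratio was -0.32.

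Of 7 regulators of granule genes measured, where 12.5% of all genes were over 2-fold lower, none was over 2-fold higher, and Klf5, with 2 UMIs in PCB126 and 51 in Control neutrophils, was 2.68-fold higher in Control with an interval that includes 1 (0.705 to 22.7). Spi1, which encodes PU.1, was 704 CPM in PCB126 and 703 CPM in Control neutrophils, a ratio of 1.00 (0.879 to 1.14). Among C/EBP factors, Cebpd had a ratio of 1.61 (1.36 to 1.89) and Cebpb was 1.17-fold higher in Control (1.08 to 1.26), while Cebpe, named after its value was seen, was 58.5 and 56.5 CPM. Irf8, also named after its values were seen, had 0 UMIs in PCB126 and 35 in Control neutrophils, at 9.78 CPM. Against a floor of 3 counts in PCB126 this is not over 2-fold. Of the 35 UMIs, 15 lay outside the Camp-led and Prtn3-led clusters. The median log2 ratio was 0.02 over 6 genes.

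Of 3 receptors of granule proteins measured, none was over 2-fold higher and Lrp1, named after its value was seen, with 0 UMIs in PCB126 and 72 in Control neutrophils, was over 2-fold lower. Itgb2, the shared chain of the leukocyte integrins, was 1.55-fold higher in Control (1.28 to 1.90), and the formyl peptide receptor gene Fpr2 1.21-fold higher (1.00 to 1.46). Their median log2 ratio was -0.45 over 2 genes.

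None of the 8 late-list genes passed 2-fold, and their median log2 ratio was 0.37. Retnlg, a resistin-like gene of mature neutrophils, was 16073 CPM in PCB126 and 11470 CPM in Control neutrophils, a ratio of 1.40 (1.36 to 1.44), whereas Il1b had a ratio of 1.01 (0.970 to 1.04) and Mxd1 was 1908 CPM and 2022 CPM, a ratio of 0.943 (0.873 to 1.02). Of the 9 early-list genes none was over 2-fold higher and 3 were over 2-fold lower, against 7.79% and 12.5% of all genes. They were the proliferation gene Mki67 with 17 UMIs in PCB126 and 349 in Control neutrophils, Fcnb, and Stmn1 with 3 and 137, the last named after its value was seen. The median log2 ratio over all 9 early-list genes was -0.10. Hmgb2, the early-list gene with the most UMIs, was 1472 CPM in PCB126 and 1456 CPM in Control neutrophils. Chil3 was 1106 CPM and 816 CPM, a ratio of 1.35 from 416 and 2919 UMIs, and Tuba1b 53.2 CPM and 72.7 CPM, a ratio of 0.731 (0.439 to 1.15).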

How the data were processed

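Single liver cells of 1 PCB126 mouse and 1 Control mouse were captured in droplets for 3′ sequencing. The values used are raw UMI counts per gene and barcode, as deposited by the authors, with Cell Ranger 6.0.0 named per the file headers and Cell Ranger 6.1.1 and Seurat 4.0.1 per the submitters' processing notes. No genome build was given in the sources used here. Positions come from GENCODE M21 on GRCm38, in which 34049 of 34244 gene identifiers were found, and promoter sequences from RefSeq on GRCm38.p6.

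Barcodes with at least 500 UMIs, at least 250 genes and at most 20% mitochondrial UMIs were kept, which left 1149 of 4307 in PCB126 and 1886 of 8550 in Control. The highest doublet scores (Scrublet, in scanpy 1.11.5), at 0.8% per 1000 barcodes, were left out, 11 in PCB126 and 28 in Control; Scrublet's own threshold called 3 and 8. A further 46 PCB126 and 74 Control barcodes met the neutrophil threshold but failed the filter. The libraries shared 3 barcodes, none among the cells used. Median depth was 6567 UMIs per cell in PCB126 and 5258 in Control.

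Cells were clustered with the Leiden algorithm (leidenalg 0.10.2, resolution 1) on 30 components of 2000 variable genes, without the members, S100a8 and S100a9. Clusters were named from marker lists, and the Prtn3-led cluster was left unnamed. The members, lists, markers and stage index were chosen with earlier results of these data known, and the promoter motifs after reading the sequences. Beside the members, the genes named are the 3 most correlated with each set and, per list, the 2 with the most UMIs in each direction, except where the text says that a gene was named after its values were seen. Itgam, listed among the granule genes, was not analysed here.

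Levels are UMIs summed over a class and scaled to CPM, with exact Poisson intervals (scipy 1.17.1). Ratios are PCB126 over Control with exact conditional binomial intervals, and shares carry exact Clopper-Pearson intervals, all at 95%. A level with no UMI is bounded by 3 counts in the class. With 1 library per group no test across samples exists, and "over 2-fold" is a fold in the sums, over genes with at least 20 UMIs in both libraries together. Shares were also computed after thinning each cell to 1000 UMIs, which left out 3 Control neutrophils. Alternatives were other neutrophil thresholds, filters, cluster resolutions, scalings, weightings and left-out clusters. The calculation was tested on simulated counts.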

Additional observations from a re-analysis of the deposited data

Results flagged for a closer look

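Mmp9 had a signal in barcodes that the comparisons do not use. Among the barcodes left out by the filters, 3158 in PCB126 and 6664 in Control, it had 208 UMIs in PCB126 and 96 in Control. These are 33.4 CPM in PCB126 and 9.44 CPM in Control, a ratio of 3.53 (2.76 to 4.55), above the level of the Control library. In the same barcodes Camp had 8 UMIs in PCB126 and 116 in Control, 0.112 times the Control level (0.0474 to 0.229).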

How the results depend on the processing

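Mmp9 in neutrophils was higher in PCB126 under every alternative tried, and so was the gelatinase set, at 0.21 to 0.62 on the log2 scale (all values here are log2 ratios of PCB126 over Control). The specific set in neutrophils, 0.20 in the cells used, was 0.27 with a threshold of 60 UMIs, 0.33 with 2% of the UMIs, 1.22 with stage ranges weighed equally, 1.30 at 10% mitochondrial UMIs, -0.27 at 50%, -0.24 with no barcode filter, 0.018 thinned, 0.26 with the total without mitochondrial and ribosomal RNA genes, 0.13 without members and S100 genes in the total and 0.11 with cells weighed equally. It was -0.87 in neutrophil-like clusters only, -0.74 without the Camp-led cluster, 0.15 without the Prtn3-led cluster and -0.78 without both, where 2 members in place of 1 passed 2-fold. The azurophil set in neutrophils, -4.14, was -0.14 at 50% mitochondrial UMIs, -0.10 with no barcode filter and -0.76 thinned. The gelatinase set in neutrophils, 0.32, moved to 0.62 with stage ranges weighed equally. In other leukocytes the azurophil set, 0.75, was 1.37 at resolution 0.5, 1.59 at 10% and 0.61 at 50% mitochondrial UMIs, -0.18 thinned, -0.23 with cells weighed equally and -0.96 without the Prtn3-led cluster. The specific set there, -3.69, was -2.28 in Ptprc-positive cells, -5.28 at 10% and -2.25 at 50% mitochondrial UMIs, -2.73 with doublets kept and -2.10 with the endothelial-like level subtracted. The gelatinase set there, 0.49, was 0.84 with a threshold of 15 UMIs, 0.049 at resolution 0.5, -0.78 at 10% mitochondrial UMIs, 0.16 thinned and 2.30 without the Prtn3-led cluster. Of 291 alternative values of single genes 30 had the other sign, 2 of them for genes over 2-fold in the cells used. These were Elane in other leukocytes, 2.42 but -0.87 without the Prtn3-led cluster, and Ltf there, -2.19 from 1 PCB126 and 8 Control UMIs but 0.16 with cells weighed equally. The other 28 were for genes within 2-fold, such as Camp in neutrophils, 0.91 but -1.49 in neutrophil-like clusters only and -1.44 without both clusters, and Ltf, 0.24 but -3.64 and -3.75. The causes were not tested. Of the same 291, 211 moved by less than the counting error; of 40 alternative shares 22 moved, and of 18 stage-range levels 4 moved. Subtraction of a free-RNA profile was not run, because no barcode had under 100 UMIs; the lowest had 865 in PCB126 and 534 in Control. Leaving out clusters, weighing cells equally and subtracting the endothelial-like level were chosen after seeing the data. No paired analysis was possible because each group is 1 library. Depth limits the azurophil genes in PCB126 neutrophils, where a count of 0 allows 7.97 CPM, and 2 or 3 PCB126 cells carry the early values.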

Other observations

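Outside leukocytes only Lcn2 in cholangiocyte-like cells, the bile duct epithelium, passed 1000 CPM in the classes measured. It was 1053 CPM (1004 to 1103) over 86 PCB126 cells and 1881 CPM (1807 to 1958) over 71 Control cells, and was 1.79-fold higher in Control (1.68 to 1.90). A UMI was present in 93.0% of the PCB126 cells and 95.8% of the Control cells, at median depths of 15528 and 10729 UMIs. In vascular endothelial-like cells Lcn2 was 16.1 CPM in PCB126 and 73.1 CPM in Control.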
